A study of Homo sapiens with 3 samples.

Results

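Nearly all genes described here encode subunits of the mitochondrial respiratory chain or of the ATP synthase, on both the nuclear and the mitochondrial genome. ATP5IF1, an inhibitory factor of the ATP synthase, and the readthrough ATP5MF-PTCD1 were taken with complex V by symbol. A protein-coding gene was taken as a member by its symbol: complex I (NDUFA, NDUFB, NDUFC, NDUFS, NDUFV and MT-ND genes), complex II (SDHA to SDHD), complex III (UQCR genes and MT-CYB), complex IV (COX4I, COX5, COX6, COX7, COX8 and MT-CO genes) and complex V, the ATP synthase (ATP5 and MT-ATP genes). NDUFAF assembly factors were left out, and NDUFA4 and NDUFA4L2 were counted with complex IV. The rule gave 99 members of 16858 protein-coding genes listed, 86 of them nuclear and 13 mitochondrial. Of the nuclear members, 37 belong to complex I, 4 to complex II, 9 to complex III, 16 to complex IV and 20 to complex V. The mitochondrial members are 7 of complex I, 1 of complex III, 3 of complex IV and 2 of complex V.

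RNA sequencing was done on SK-Hep-1, an established human line labelled as liver, in which lentivirus had been used to make stable hairpin lines. The groups are sh1089-1 and sh1089-2, each with its own hairpin to knock down LINC01089, a long noncoding RNA, and shNC, which carries a negative control hairpin. Each group is 1 library, so no difference has a replicate check and no p-value is given. An effect of the knockdown cannot be told apart from an effect of 1 hairpin, 1 infected line or 1 library, and the level of LINC01089 was not analysed here. In bulk RNA, fewer cells of a type and less RNA per cell cannot be told apart.

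Complexes I, III and IV pass electrons from reduced cofactors to oxygen and pump protons across the inner mitochondrial membrane, complex II feeds in electrons from succinate, and complex V uses the proton gradient to make ATP. Every complex but complex II is built from subunits of both genomes. The mitochondrial genes are transcribed as long precursors from each strand of a circular genome and cut apart afterwards, while the nuclear genes are transcribed singly, many of them under NRF1, the ETS factor GABPA and YY1.

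FPKM is fragments divided by the length of the gene and the size of the library. Library totals were recovered from the steps of the deposited FPKM values. They were 9528312 for sh1089-1, 8359832 for sh1089-2 and 10698480 for shNC. These totals scale the FPKM and need not equal all reads sequenced. Recovered counts are called reads below. Of 10 hepatocyte markers, 6 were listed. SERPINA1 was the 1 with a mean of at least 1 FPKM, at 5.91, 8.0 and 4.69 FPKM in sh1089-1, sh1089-2 and shNC, while APOA1, FGB and TTR were at 0 in all libraries. The summed FPKM of the 6 was 6.39, 8.36 and 5.19 in the same order, and that of the 8 listed endothelial markers, of 9, was 0.183, 0.292 and 0.478. The blood cell markers, 3 of 5 listed, summed to 0.411, 0.774 and 0.691 FPKM, and the 5 fibroblast markers to 3.0, 3.51 and 4.85 FPKM. Their part in the differences below was not tested.

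Members' differences are given as log2(FPKM + 1) in the first library named minus that in the second, so a positive value means higher in the first. Counts of differences use the 86 members with a mean of at least 1 FPKM over the 3 libraries, 73 nuclear and all 13 mitochondrial, and are set beside the 10313 protein-coding genes that pass the same filter. A ratio is that of FPKM without a pseudocount, and its 95% Clopper-Pearson interval covers counting error only. FPKM divides by a length that, for most members, is near that of a gene's merged exons. Levels between genes thus depend on that length, and ranks by FPKM and by reads can differ. NDUFB9 had 4357 reads over the 3 libraries at a length of 4106 bases, and NDUFS5 had 3876 reads at 548 bases.

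The mitochondrial members held most of the members' FPKM and reads. They made up 91.6% of the members' summed FPKM in sh1089-1, 92.9% in sh1089-2 and 92.7% in shNC. As reads they were 3.97%, 4.32% and 4.16% of the library totals, against 0.856%, 0.769% and 0.754% for the nuclear members. The summed FPKM of mitochondrial members was 10.9 times that of nuclear members in sh1089-1, 13.1 times in sh1089-2 and 12.7 times in shNC. By reads the gap was smaller, at 378222 against 81563 in sh1089-1, 361006 against 64263 in sh1089-2 and 444698 against 80699 in shNC. The FPKM ratio also depends on the gene lengths used. mRNA was enriched before library construction, per the labels' protocols, and how that step took up mitochondrial transcripts was not tested.

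**Figure D1:**
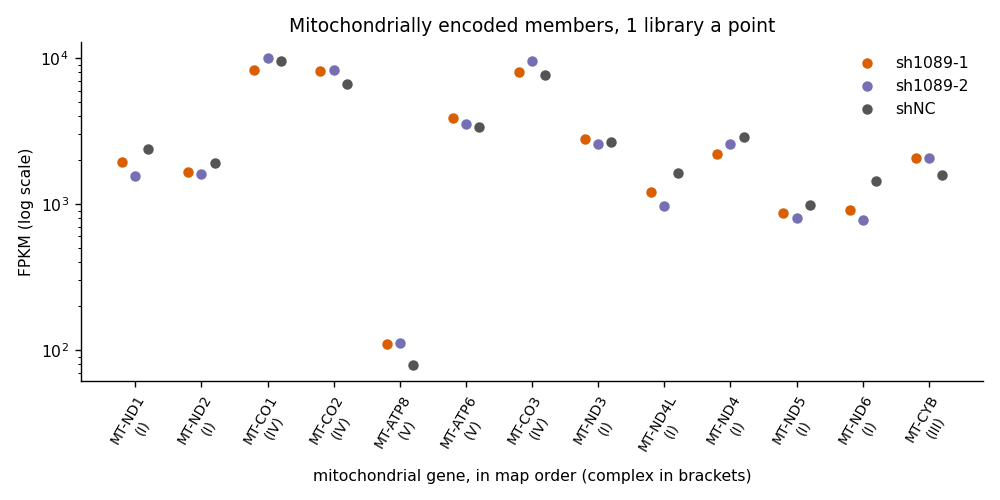
FPKM on a log scale of the 13 mitochondrial members, in map order, with 1 point for each library (sh1089-1, sh1089-2 and shNC from left to right at each gene). MT-CO1, MT-CO2 and MT-CO3 stood highest, between 6692 and 10078 FPKM, and MT-ATP8 lowest, between 78.6 and 111 FPKM.

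Mitochondrial complex I transcripts were lower in the hairpin libraries than in shNC, while most transcripts of the other complexes were higher. The median difference of the 7 complex I genes was -0.28 for sh1089-1 against shNC and -0.30 for sh1089-2 against shNC. The median of the other 6 mitochondrial members was 0.24 and 0.30, with 5 of 6 and 6 of 6 higher. Summed FPKM of the 7 complex I genes was 11637 in sh1089-1, 10863 in sh1089-2 and 13876 in shNC, which is 0.839 and 0.783 times shNC. Summed FPKM of the other 6 was 30497, 33541 and 28951, which is 1.05 and 1.16 times shNC. Within complex I, 6 of 7 genes were lower for sh1089-1 and 7 of 7 for sh1089-2, although the sh1089-2 value of MT-ND3 is near 0 and turns positive when each library is rescaled to TPM. Of all 10313 protein-coding genes past the filter, 4798 were higher and 5515 lower for sh1089-1, and 4644 and 5668 for sh1089-2. Both comparisons use the same shNC library, so a departure of shNC would appear in both.

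Among the complex I genes, MT-ND6 was farthest from shNC. MT-ND6 encodes a membrane subunit and is the single mitochondrial member annotated on the minus strand (mitochondrial genome, 14149 to 14673, GRCh38). It had 915 FPKM in sh1089-1, 779 in sh1089-2 and 1439 in shNC, with 4578, 3418 and 8080 reads. Its ratio to shNC was 0.636 (0.613 to 0.660) for sh1089-1 and 0.541 (0.520 to 0.564) for sh1089-2, or -0.65 and -0.88 in log2(FPKM + 1). MT-ND5, the neighbour on the plus strand, was less far from shNC, at 872, 800.1 and 987 FPKM, or -0.18 and -0.30. The ratio of MT-ND6 to MT-ND5 in FPKM was 1.05 in sh1089-1, 0.973 in sh1089-2 and 1.46 in shNC. Any use of strand in counting is not given in the sources used here. Plus-strand reads over the bases of MT-ND6 may thus be among those counted for it, and its level is uncertain. Without MT-ND6, the 6 complex I genes of the plus strand had median differences of -0.23 and -0.27.

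The other complex I genes encode membrane subunits too. MT-ND1 had 1954 FPKM in sh1089-1, 1550.4 in sh1089-2 and 2369.7 in shNC, a ratio to shNC of 0.824 (0.809 to 0.841) and 0.654 (0.640 to 0.669). MT-ND4L had 1215, 972 and 1635 FPKM, a ratio of 0.743 (0.712 to 0.776) and 0.595 (0.566 to 0.624). In both genes shNC was highest and sh1089-2 lowest. MT-ND4 had 2209 FPKM in sh1089-1, 2584 in sh1089-2 and 2882 in shNC, so here sh1089-1 was lowest. MT-ND2 had 1668, 1615 and 1901 FPKM, with differences of -0.19 and -0.23. MT-ND3 had 2803, 2562 and 2662 FPKM, with differences of 0.07 and -0.05, the closest to shNC of the 7.

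MT-CYB, which encodes cytochrome b of complex III, was higher in both hairpin libraries. It had 2070.0 FPKM in sh1089-1, 2074 in sh1089-2 and 1582 in shNC, a ratio to shNC of 1.31 in each (1.28 to 1.33 for sh1089-1 and 1.29 to 1.34 for sh1089-2). MT-CO2, the subunit of complex IV that takes electrons from cytochrome c, had 8181, 8251 and 6692 FPKM, a ratio of 1.22 (1.21 to 1.24) and 1.23 (1.22 to 1.25). For both genes the hairpin libraries lay close together and above shNC. MT-CO1, the catalytic subunit of complex IV, had 8289 FPKM in sh1089-1, 10078 in sh1089-2 and 9496 in shNC. MT-CO3, another core subunit, had 7986, 9499 and 7726 FPKM. Against shNC, MT-CO1 differed by -0.20 in sh1089-1 and 0.09 in sh1089-2, and MT-CO3 by 0.05 and 0.30.

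MT-ATP6, the proton channel subunit of complex V, had 3861 FPKM in sh1089-1, 3528 in sh1089-2 and 3378 in shNC, or 0.19 and 0.06 against shNC. MT-ATP8, a small membrane subunit of the same complex, had 110.0, 111 and 78.6 FPKM on 217, 192 and 174 reads, a ratio to shNC of 1.40 (1.14 to 1.72) and 1.41 (1.14 to 1.74). The MT-ATP8 gene ends inside MT-ATP6, and MT-ND4L ends inside MT-ND4, so each pair is carried by 1 transcript. The levels listed for the pairs were nevertheless unequal. MT-ATP6 was 35.1 times MT-ATP8 in sh1089-1, 31.8 times in sh1089-2 and 43.0 times in shNC, and MT-ND4 was 1.82, 2.66 and 1.76 times MT-ND4L. How reads that span both genes of a pair were assigned is not given in the sources used here.

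The shared stretches are shown because they mark the bases for which a read cannot be given to 1 gene of the pair. They are printed 5′ to 3′ on the plus strand from the GENCODE 29 transcripts on GRCh38, with the bases in both genes in capitals and 20 bases on each side in lower case. MT-ATP8 and MT-ATP6 share 46 bases (chrM:8507-8592 with flanks), which is 21.1% of the coding bases of MT-ATP8 when the stop codon is left out, and MT-ND4L and MT-ND4 share 7 (chrM:10740-10786 with flanks).
MT-ATP8 and MT-ATP6: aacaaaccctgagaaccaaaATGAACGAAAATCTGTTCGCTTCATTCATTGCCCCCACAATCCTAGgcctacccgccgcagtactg
MT-ND4L and MT-ND4: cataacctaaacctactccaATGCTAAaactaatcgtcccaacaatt

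**Figure D2:**
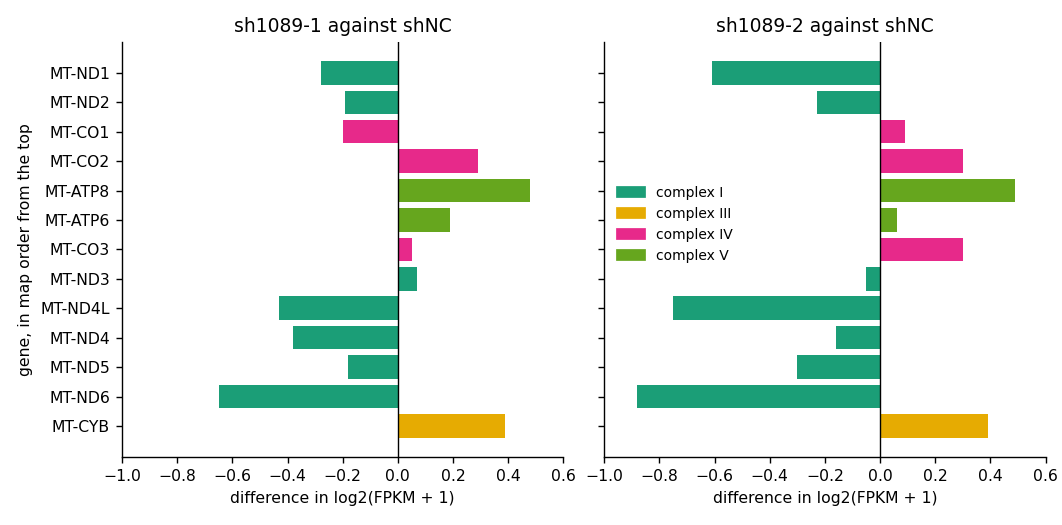
Difference in log2(FPKM + 1) of each mitochondrial member from shNC, for sh1089-1 on the left and sh1089-2 on the right, in map order and coloured by complex. Complex I genes lie between -0.65 and 0.07 for sh1089-1 and between -0.88 and -0.05 for sh1089-2, and the other genes between -0.20 and 0.48 and between 0.06 and 0.49.

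Nuclear members stood higher in sh1089-1 than in either other library. For sh1089-1 against shNC their median difference was 0.14, with 56 above shNC and 17 below. The median of all 10313 protein-coding genes was -0.02, with 4798 above and 5515 below. For sh1089-2 against shNC the members' median was -0.03, with 33 above and 40 below. For all genes it was -0.04, with 4644 above and 5668 below, a split near that of the members. For sh1089-2 against sh1089-1 the members' median was -0.21, with 10 above and 63 below. For all genes it was -0.01, with 4927 above and 5386 below. The summed FPKM of the nuclear members was 3863 in sh1089-1, 3388 in sh1089-2 and 3376 in shNC. The higher nuclear level in sh1089-1 was therefore not seen in sh1089-2, which carries the other hairpin.

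Counts of members over both genomes were read against the same counts over all protein-coding genes. For sh1089-1 against shNC, 26 of 86 members (30.2%) were at least 1.2-fold higher, against 18.2% of all genes, and 4 (4.65%) were at least 1.2-fold lower, against 21.8%. All 4 lower members were mitochondrial. At 1.5-fold, 4 members were higher (4.65%, background 4.55%) and 1 was lower (1.16%, background 4.56%). Neither share stood above its background by more than 1 percentage point. For sh1089-2 against shNC, 12 members (14.0%) were at least 1.2-fold higher, against 16.3%, and 16 (18.6%) at least 1.2-fold lower, against 21.2%. At 1.5-fold, 1 was higher (1.16%, background 4.04%) and 4 were lower (4.65%, background 4.15%). None of the sh1089-2 shares stood above its background by more than 1 percentage point. For sh1089-2 against sh1089-1, 2 members (2.33%) were at least 1.2-fold higher, against 11.9%, and 28 (32.6%) at least 1.2-fold lower, against 12.9%. At 1.5-fold, 0 were higher (background 1.22%) and 2 were lower (2.33%, background 1.01%).

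**Figure D3:**
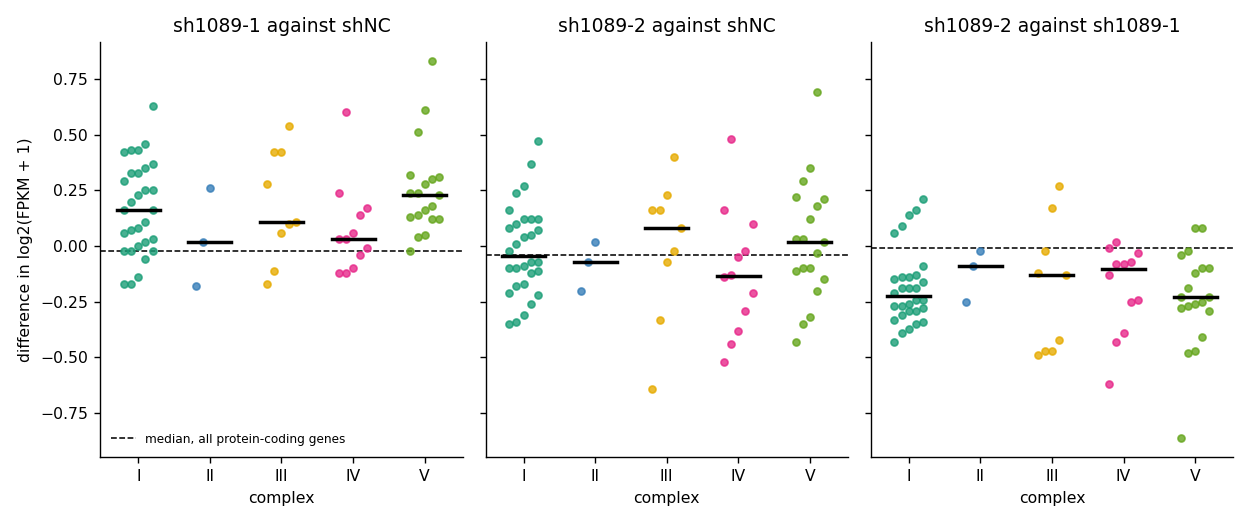
Difference in log2(FPKM + 1) of the 73 nuclear members past the filter, by complex, for sh1089-1 against shNC, sh1089-2 against shNC and sh1089-2 against sh1089-1, with 1 point a gene, a black bar at each complex's median and a dashed line at the median of all protein-coding genes. In the first panel the medians of complexes I to V, 0.16, 0.02, 0.11, 0.03 and 0.23, all lie above the line. In the third they are -0.22, -0.09, -0.13, -0.11 and -0.23, all below it.

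Among nuclear complex I members, 30 of 37 passed the filter. Their median difference was 0.16 for sh1089-1 against shNC, where 10 were at least 1.2-fold higher (33.3%, against 18.2% of all genes) and 0 lower (against 21.8%). For sh1089-2 against shNC it was -0.04, where 3 were higher and 3 lower (10% each, against 16.3% and 21.2%). NDUFS7, an iron-sulfur subunit on the route to ubiquinone (chromosome 19, 1383527 to 1395589, plus strand, GRCh38), had 10.1 FPKM in sh1089-1, 8.95 in sh1089-2 and 6.17 in shNC. Its ratio to shNC was 1.64 (1.46 to 1.84) and 1.45 (1.28 to 1.64). NDUFV1, the subunit that binds NADH and flavin, had 27.0, 23.6 and 19.3 FPKM, a ratio of 1.40 (1.29 to 1.52) and 1.22 (1.12 to 1.33). Both genes were highest in sh1089-1 and lowest in shNC.

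Among nuclear complex I members past the filter, NDUFA12 and NDUFB3, accessory subunits, were lowest by the mean of the hairpin differences. NDUFA12 had 37.2 FPKM in sh1089-1, 33.6 in sh1089-2 and 41.8 in shNC, or -0.17 and -0.31 against shNC. NDUFB3 had 44.9, 38.8 and 49.6 FPKM, or -0.14 and -0.34. In both, the sh1089-2 library was lowest. The nuclear complex I members highest in mean FPKM were NDUFS5 and NDUFA1, also accessory subunits. NDUFS5 had 255, 223 and 259 FPKM, and NDUFA1 had 143, 113 and 106 FPKM. NDUFS5 thus lay close to shNC in sh1089-1, at -0.02, while NDUFA1 was higher there, at 0.42, and at 0.08 in sh1089-2. The other filtered nuclear members of the complex lay between -0.17 and 0.43 in sh1089-1 and between -0.35 and 0.37 in sh1089-2.

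Complex II links the chain to the citrate cycle as succinate dehydrogenase. SDHB, its iron-sulfur subunit, had 44.0 FPKM in sh1089-1, 41.2 in sh1089-2 and 43.4 in shNC, ratios of 1.01 (0.930 to 1.1) and 0.949 (0.867 to 1.04), so no difference was detectable at this depth. The membrane anchors differed in opposite senses in sh1089-1. SDHC had 6.49, 6.39 and 7.51 FPKM, or -0.18 and -0.20, and SDHD had 10.4, 8.63 and 8.52 FPKM, or 0.26 and 0.02. SDHA, the flavin-bearing catalytic subunit, was listed far below the others, at 0.455, 0.614 and 0.384 FPKM on 38, 45 and 36 reads. SDHAP1 and SDHAP4, pseudogenes named after SDHA, were listed higher, at 3.82, 3.82 and 4.49 FPKM and at 3.12, 4.06 and 4.24 FPKM. How reads common to SDHA and its copies were counted is not given in the sources used here, so the SDHA level is uncertain.

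All 9 nuclear complex III members passed the filter, with medians of 0.11 and 0.08 against shNC. In sh1089-1, 4 were at least 1.2-fold higher (44.4%, against 18.2% of all genes) and 0 lower (against 21.8%). In sh1089-2, 1 was higher (11.1%, against 16.3%) and 2 lower (22.2%, against 21.2%). UQCRFS1, the Rieske iron-sulfur protein, had 58.3 FPKM in sh1089-1, 57.3 in sh1089-2 and 43.3 in shNC, a ratio to shNC of 1.35 (1.25 to 1.44) and 1.32 (1.23 to 1.42). The hairpin libraries thus lay together, above shNC. UQCR10, a small accessory subunit, was higher in sh1089-1, at 70.7, 50.9 and 48.2 FPKM, ratios of 1.47 (1.30 to 1.65) and 1.06 (0.925 to 1.2). UQCRB, which binds ubiquinone, had 14.5, 10.2 and 16.4 FPKM, ratios of 0.882 (0.821 to 0.948) and 0.621 (0.571 to 0.675), and was lowest in sh1089-2. UQCR11, at 4.47, 3.08 and 4.11 FPKM, rested on 91, 55 and 94 reads. Highest in mean FPKM were UQCRH, the hinge protein, at 143, 130.0 and 132 FPKM, and UQCRC1, a core protein, at 82.3, 75.8 and 67.6 FPKM. UQCRHL, a near copy of UQCRH, was listed at 5.15, 5.93 and 4.89 FPKM, and how reads common to both were counted is not given in the sources used here.

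Nuclear complex IV members lay nearer to shNC in sh1089-1 than those of complexes I and V, with a median of 0.03, and at -0.14 in sh1089-2. COX8A, a small membrane subunit (chromosome 11, 63974607 to 63976543, plus strand), had 57.8 FPKM in sh1089-1, 52.8 in sh1089-2 and 37.7 in shNC, ratios of 1.53 (1.27 to 1.85) and 1.40 (1.15 to 1.71). Among those past the filter, COX6B1, on the intermembrane face, was the next highest in the mean of the hairpin differences, at 69.9, 70.9 and 63.5 FPKM, or 0.14 and 0.16. COX5B, a zinc-binding subunit on the matrix side, was lowest by that mean among the same members, at 68.3, 51.7 and 74.5 FPKM, ratios of 0.917 (0.841 to 1.00) and 0.694 (0.629 to 0.766). COX6A1 had 12.5, 9.02 and 12.6 FPKM, while COX6A1P2, a pseudogene named after it, was listed at 16.5, 9.79 and 11.9 FPKM. COX5B and COX6A1 were both lowest in sh1089-2. COX7B, another small subunit, stood at 30.7, 19.7 and 25.9 FPKM, and its ratio of sh1089-2 to sh1089-1 was 0.641 (0.573 to 0.716).

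The nuclear complex IV members highest in mean FPKM were COX7C and COX5A. COX7C had 100.2 FPKM in sh1089-1, 97.7 in sh1089-2 and 108 in shNC, and COX5A had 103, 86.8 and 100.4 FPKM. Of the isoforms listed, the forms used broadly across tissues were at high levels and the restricted forms at low ones. The forms COX4I2, COX6A2 and COX7B2 were not analysed here. COX4I1, at 47.7, 45.4 and 42.2 FPKM, is the general form of its subunit. COX7A2 had 42.6, 40.2 and 40.9 FPKM, while COX7A1, its heart and muscle form, had 0.358, 0.408 and 0.160 FPKM on 4, 4 and 2 reads. COX7A2L, a relative with a part in supercomplexes, had 26.0, 24.6 and 25.4 FPKM. COX6B2, a testis form, rested on 1, 7 and 7 reads, and COX8C on 0, 1 and 0. COX6B2 shares 100% of its coding bases with another gene, so its level is uncertain. NDUFA4 had 29.2, 28.9 and 31.8 FPKM, and its relative NDUFA4L2, known as hypoxia-induced, 0.673, 0.426 and 0.30 FPKM on 18, 10 and 9 reads.

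Complex V held the highest nuclear median in sh1089-1, at 0.23, with 18 of 19 filtered members above shNC and 7 at least 1.2-fold higher (36.8%, against 18.2% of all genes). Of all 10313 genes past the filter, 4798 were above shNC there. In sh1089-2 the complex V median was 0.02, with 10 above and 9 below, beside 4644 above and 5668 below for all genes. ATP5F1B, the catalytic beta subunit, was the nuclear member highest in mean FPKM. It had 609 FPKM in sh1089-1, 569 in sh1089-2 and 489 in shNC, ratios of 1.25 (1.22 to 1.28) and 1.16 (1.13 to 1.19). ATP5F1D, the delta subunit of the central stalk (chromosome 19, 1241746 to 1244826, plus strand), had 37.1, 39.4 and 23.9 FPKM, ratios of 1.55 (1.39 to 1.73) and 1.64 (1.47 to 1.84). ATP5F1D was the 1 nuclear member at least 1.5-fold higher in both hairpin libraries. ATP5F1E, the epsilon subunit of the same stalk, was not higher, at 25.1, 18.6 and 25.5 FPKM, or -0.02 and -0.43. Subunits of 1 stalk thus differed in direction in sh1089-2.

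ATP5PF, a peripheral stalk subunit (chromosome 21, 25716503 to 25735673, minus strand), had 61.9 FPKM in sh1089-1, 44.3 in sh1089-2 and 34.5 in shNC. Its ratio to shNC, 1.80 (1.64 to 1.97), was the highest of the filtered members in sh1089-1, and it was 1.29 (1.16 to 1.42) in sh1089-2. ATP5ME, a membrane subunit of complex V (chromosome 4, 672436 to 674338, minus strand), lay on opposite sides of shNC in the hairpin libraries. It had 49.4, 26.7 and 34.3 FPKM on 439, 208 and 342 reads, ratios to shNC of 1.44 (1.25 to 1.67) and 0.778 (0.652 to 0.927). ATP5MK, another membrane subunit, had 109, 91.7 and 106 FPKM, or 0.05 and -0.20. ATP5MC1, ATP5MC2 and ATP5MC3 encode the same mature ring subunit c. ATP5MC1 had 53.9, 44.2 and 43.6 FPKM, ATP5MC2 had 67.6, 66.6 and 54.4 FPKM, and ATP5MC3 had 40.5, 33.6 and 33.0 FPKM. All 3 were at least 1.2-fold higher in sh1089-1 than in shNC, and ATP5MC2 was also so in sh1089-2.

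The start regions of ATP5PF, NDUFS7 and COX5B are printed to show the matches to core motifs of the factors named above. ATP5PF and NDUFS7 were higher in both hairpin libraries. COX5B was lower in sh1089-2, and its ratio to shNC in sh1089-1 was 0.917 (0.841 to 1.00). The motifs searched on both strands were CCGGAAG (the core bound by ETS factors such as GABPA), GCGCATG (part of the NRF1 palindrome) and ATGGCGG (the YY1 core). Sequences come from RefSeq on GRCh38.p14, 250 bases before to 50 after the annotated start, 5′ to 3′ on the strand of the gene, with motif matches in capitals, a match on the other strand appearing as its reverse complement. ATP5PF has a pair of windows in the table, and the one farther along the gene's strand is shown (chr21:25734855-25735154, minus strand), beside NDUFS7 (chr19:1383657-1383956, plus strand) and COX5B (chr2:97645812-97646111, plus strand).
ATP5PF: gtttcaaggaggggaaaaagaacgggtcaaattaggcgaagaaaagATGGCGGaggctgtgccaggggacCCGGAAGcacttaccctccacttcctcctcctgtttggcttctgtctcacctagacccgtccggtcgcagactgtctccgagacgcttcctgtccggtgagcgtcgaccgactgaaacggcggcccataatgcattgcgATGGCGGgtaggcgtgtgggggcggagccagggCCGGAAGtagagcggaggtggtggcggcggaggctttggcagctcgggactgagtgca
NDUFS7: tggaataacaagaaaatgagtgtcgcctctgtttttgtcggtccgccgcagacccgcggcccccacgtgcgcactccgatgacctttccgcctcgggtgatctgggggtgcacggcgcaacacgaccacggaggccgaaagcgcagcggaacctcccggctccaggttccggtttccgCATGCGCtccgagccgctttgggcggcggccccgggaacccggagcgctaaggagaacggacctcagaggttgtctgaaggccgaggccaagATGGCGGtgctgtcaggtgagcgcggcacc
COX5B: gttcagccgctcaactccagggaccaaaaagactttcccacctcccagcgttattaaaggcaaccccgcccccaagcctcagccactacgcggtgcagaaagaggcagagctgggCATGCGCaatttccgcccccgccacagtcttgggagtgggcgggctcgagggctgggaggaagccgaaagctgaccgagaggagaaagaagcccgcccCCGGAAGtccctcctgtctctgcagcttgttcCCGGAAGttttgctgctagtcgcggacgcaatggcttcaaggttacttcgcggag

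The ATP5PF window shown held 4 matches, to the YY1 and ETS cores, and its other window (chr21:25735005-25735304) held 3, to the NRF1, YY1 and ETS motifs. The windows overlap, and the first YY1 and first ETS match of the window shown are also those of the other. NDUFS7 held 2, to the NRF1 and YY1 motifs, and COX5B held 3, to the NRF1 and ETS motifs. Whether matches go with the direction of a difference was not tested. Windows were found for 68 of the 86 nuclear members. The ETS core was in 30.9% of the 68, against 23.7% of 8422 protein-coding genes past the filter and 12.2% of 27305 symbols in the whole table. The NRF1 motif was in 22.1%, against 9.10% and 5.30%, and the YY1 core in 30.9%, against 13.4% and 6.66%. A match describes letters in the window and does not show binding.

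Of the nuclear members, 13 lay below a mean of 1 FPKM: NDUFA7, NDUFA9, NDUFA11, NDUFA13, NDUFB8, NDUFC2, NDUFV2, SDHA, COX6B2, COX7A1, COX8C, NDUFA4L2 and ATP5MGL. NDUFV2 encodes a core iron-sulfur subunit of complex I, yet was listed at 0.155 FPKM in sh1089-1, 0.0882 in sh1089-2 and 0.379 in shNC, on 4, 2 and 11 reads. NDUFA9, an accessory subunit near the ubiquinone site, had 0.687, 0.576 and 0.828 FPKM. NDUFB8, in the membrane arm, had 0.578, 0.598 and 1.08 FPKM. NDUFA7 was listed with 4, 0 and 3 reads, and a count of 0 allows up to 0.359 RPM, reads scaled to library size, in sh1089-2. NDUFA11, NDUFA13 and NDUFC2 lay between 0.572 and 1.18 FPKM. The nuclear complex I subunits that passed the filter were listed at up to 255 FPKM in sh1089-1.

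Most of these low values lay in genes that share coding bases with another gene. In GENCODE 29, 16 nuclear members share at least 10% of their coding bases with exons of another gene on the same strand. Of the 18 partner genes, 17 are annotated as protein-coding, the readthrough genes NDUFC2-KCTD14 and ATP5MF-PTCD1 among them. Only 6 of the 18 were among the genes listed in the deposited data. The annotation release that the authors used is not given in the sources used here. The 16 had a median of mean FPKM of 1.68 (range 0.143 to 49.4) and 8 passed the filter. The 70 other nuclear members had a median of 35.0 (0.0438 to 556) and 65 passed. Among all protein-coding genes the median was 0.595 for 1333 that share as much and 2.62 for 15525 others. NDUFV2 shares 84.7% of its coding bases, NDUFB8 85.2%, NDUFA7 78.3%, NDUFC2 76.9%, NDUFA9 67.9%, NDUFA13 55.2% and NDUFA11 36.9%, so each of the complex I members below the filter is among the 16. Whether reads from the shared bases were left out of the authors' counts was not tested, and the levels of these genes are uncertain.

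**Figure D4:**
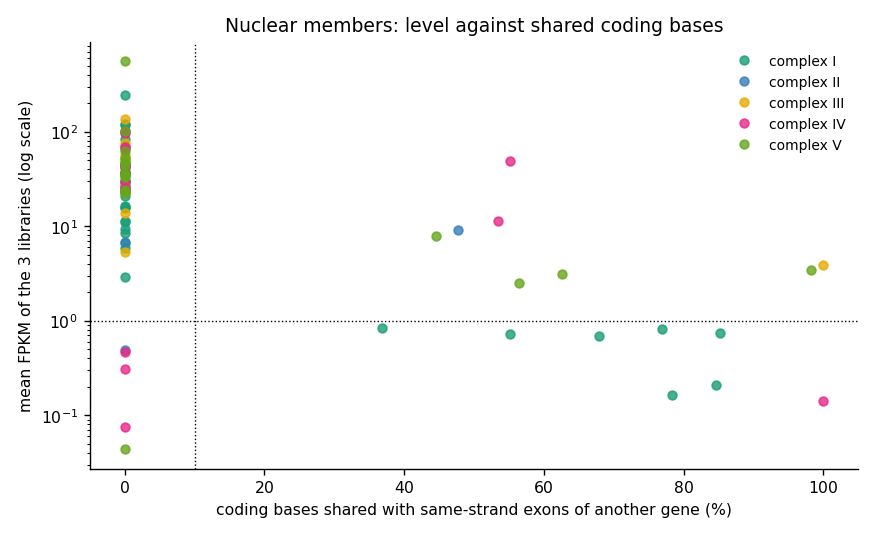
Mean FPKM of the 3 libraries on a log scale for each nuclear member, against the percentage of its coding bases that lie in same-strand exons of another gene, coloured by complex. The dotted lines mark 10% shared and 1 FPKM, and the 7 complex I members below 1 FPKM all lie right of the 10% line.

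Members on the shared side that passed the filter were SDHD, UQCR11, COX6A1, COX8A, ATP5MF, ATP5MG, ATP5PO and ATP5MF-PTCD1. COX6B2, at 100% shared, was the other member of the 16 below 1 FPKM. ATP5PO, the stalk subunit that links the head to the membrane part of complex V, had 3.38 FPKM in sh1089-1, 3.25 in sh1089-2 and 2.74 in shNC, with 62.6% shared. ATP5MG, a membrane subunit, had 2.80, 2.25 and 2.49 FPKM with 56.5% shared. ATP5MF had 9.13, 6.26 and 8.05 FPKM, and the readthrough ATP5MF-PTCD1 3.93, 3.10 and 3.17 FPKM. COX8A, described above as higher in the hairpin libraries, shares 55.1%, and SDHD 47.7%. With all 16 left out, the median of the nuclear members kept its size, at 0.14 for sh1089-1 and -0.02 for sh1089-2.

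Genes that serve the chain were taken as lists. The list of other chain parts and carriers also holds CYC1, a complex III subunit whose symbol the member rule does not take. The mitochondrial ribosome, which translates the 13 mitochondrial mRNAs, had medians close to those of the nuclear members. The 75 ribosomal genes past the filter had a median of 0.19 for sh1089-1 against shNC, with 28 at least 1.2-fold higher (37.3%, against 18.2% of all genes) and 4 lower (5.33%, against 21.8%). For sh1089-2 against shNC the median was 0.01, with 7 higher (9.33%, against 16.3%) and 11 lower (14.7%, against 21.2%). For sh1089-2 against sh1089-1 the median was -0.22, with 0 higher (against 11.9%) and 30 lower (40.0%, against 12.9%). MRPS2, of the small subunit, had 50.5 FPKM in sh1089-1, 36.9 in sh1089-2 and 29.4 in shNC, and MRPL39, of the large subunit, 46.5, 31.3 and 27.1 FPKM. The genes named from the lists were chosen after their values were seen.

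For the 33 filtered genes of mitochondrial DNA upkeep, transcription and RNA processing, the median was 0.01 for sh1089-1 and -0.11 for sh1089-2 against shNC. At 1.2-fold, 8 were higher in sh1089-1 (24.2%, against 18.2% of all genes) and 3 lower (9.09%, against 21.8%). In sh1089-2, 2 were higher (6.06%, against 16.3%) and 7 lower (21.2%, the same share as in all genes). TFAM, which packages mitochondrial DNA and starts its transcription, had 10 FPKM in sh1089-1, 5.84 in sh1089-2 and 9.47 in shNC, so it was lowest in sh1089-2. POLRMT, the mitochondrial RNA polymerase, had 30.5, 27.7 and 24.7 FPKM. ELAC2, which cuts transfer RNAs out of the precursors, had 51.9, 44.3 and 29.6 FPKM and was higher in both hairpin libraries. LRPPRC, which stabilises mitochondrial mRNAs, had 17.2, 13.7 and 18.9 FPKM.

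Among 53 assembly factors past the filter, the median was 0.11 for sh1089-1 and -0.04 for sh1089-2. At 1.2-fold in sh1089-1, 12 were higher (22.6%, against 18.2% of all genes) and 7 lower (13.2%, against 21.8%). In sh1089-2, 9 were higher (17.0%, against 16.3%) and 11 lower (20.8%, against 21.2%), which is near the background. NDUFAF1, a factor for complex I, was lower in both, at 6.05 FPKM in sh1089-1, 6.56 in sh1089-2 and 10.2 in shNC. TTC19, a factor for complex III, was higher in both, at 12.2, 12.7 and 8.18 FPKM. Among 23 other chain parts and carriers, with medians of 0.13 and -0.03, 5 were at least 1.2-fold higher in sh1089-1 (21.7%, against 18.2%) and 4 in sh1089-2 (17.4%, against 16.3%), shares near the background. In each comparison 3 were lower (13.0%, against 21.8% and 21.2%). CYCS, cytochrome c, had 38.5, 24.9 and 22.5 FPKM and was higher in sh1089-1. CYC1, cytochrome c1 of complex III, had 141, 108 and 109.7 FPKM, or 0.36 and -0.02 against shNC.

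The 14 nuclear regulators past the filter had a median of -0.03 for each hairpin against shNC. In each comparison 3 were at least 1.2-fold higher (21.4%, against 18.2% and 16.3% of all genes). In sh1089-1 2 were lower (14.3%, against 21.8%), and in sh1089-2 1 (7.14%, against 21.2%). GABPA had 13.9 FPKM in sh1089-1, 9.32 in sh1089-2 and 9.04 in shNC, NRF1 had 4.76, 5.14 and 4.06 FPKM, and YY1 had 14.5, 16.2 and 16.3 FPKM. PPARGC1A, a coactivator of mitochondrial genes, was near 0, at 0.0579, 0.0880 and 0.0516 FPKM. The 25 genes of the citrate cycle and pyruvate entry had medians of 0.08 and 0.04. At 1.2-fold, 6 were higher in sh1089-1 (24.0%, against 18.2%) and 4 lower (16.0%, against 21.8%). In sh1089-2, 5 were higher (20%, against 16.3%) and 2 lower (8.0%, against 21.2%). PDP1, a phosphatase that activates pyruvate dehydrogenase, was lower in both, at 9.03, 9.82 and 17.1 FPKM.

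**Figure D5:**
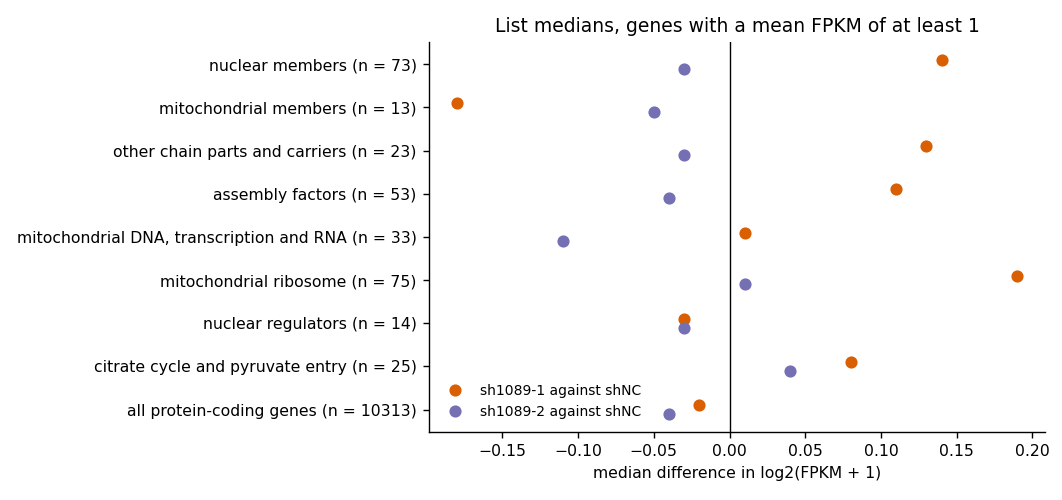
Median difference in log2(FPKM + 1) from shNC for the nuclear and mitochondrial members, 6 lists of genes that serve the chain, and all protein-coding genes, with 1 point for each hairpin library and the number of genes past the filter in brackets. The nuclear members lie at 0.14 and -0.03 and the mitochondrial ribosome at 0.19 and 0.01 for sh1089-1 and sh1089-2.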

How the data were processed

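The deposited table holds FPKM values that the authors computed for 22464 genes in 3 libraries. Trizol was used to extract RNA, mRNA was enriched and libraries kept the strand, per the labels' protocols. Per the submitters' processing notes, FastQC, StringTie and GRCh38 were used. Not given in the sources used here: the aligner, the annotation release and any use of strand in counting. Multi-copy and overlapping genes, and MT-ND6 on the minus strand, are uncertain for that reason.

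Gene types, coordinates and coding bases came from GENCODE 29, which holds 22444 of the identifiers. Whole reads were recovered from the FPKM steps for 99.8% of 19219 genes with a value above 0, and the method was tested on simulated data. Of the recovered totals, 94.8% to 95.2% lay in listed genes. A floor of 3 reads and 95% intervals cover counting error only, since reads carry no molecular identifiers. No count test was run, because each group is 1 library.

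Differences are on log2(FPKM + 1), which understates the change of low genes, with a filter at a mean of 1 FPKM and folds of 1.2 and 1.5. Named members are all mitochondrial ones, those past 1.5-fold in any comparison, complex II, isoforms and those below the filter. Added in each complex are the 2 with the highest mean FPKM and the 2 highest and 2 lowest by mean hairpin difference. Alternatives were pseudocount 0.1, filters of none and 5 FPKM, TPM over all or nuclear genes, median centring and reduced member sets. The members and lists were chosen with earlier results of these data known. COX4I2, COX6A2, COX7B2 and NDUFC2-KCTD14 were not analysed here. Python 3.11.15, numpy 2.4.6, pandas 2.3.3, scipy 1.17.1 and matplotlib 3.10.9 were used.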

Additional observations from a re-analysis of the deposited data

Results flagged for a closer look

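ATP5ME, a membrane subunit of complex V, differed from shNC in opposite directions in the hairpin libraries, by 0.51 in log2(FPKM + 1) for sh1089-1 and by -0.35 for sh1089-2. In the FPKM as deposited it was the 1 member past the filter that was at least 1.2-fold higher in sh1089-1 and at least 1.2-fold lower in sh1089-2. Under TPM, COX7B also was, at 0.27 and -0.32. Each value rests on 1 library, and the difference between the hairpins was not tested.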

How the results depend on the processing

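Under 8 alternatives, 46 of 48 recomputed counts stayed within 1.5 times the value reported, and 41 of 48 recomputed medians kept their sign. The count of members at least 1.2-fold higher in sh1089-2 than in sh1089-1, which is 2, became 4 under TPM and 5 under TPM over nuclear genes, and the cause was not tested. TPM raised every gene's log2 ratio without a pseudocount by 0.02 for sh1089-1 and 0.07 for sh1089-2 against shNC. With the pseudocount of 1, low genes moved by other amounts. For sh1089-2 against shNC, SDHA went from 0.22 to 0.46 and NDUFA7 from -0.26 to -0.70. The median of nuclear members stayed between 0.12 and 0.17 for sh1089-1 against shNC and between -0.22 and -0.15 for sh1089-2 against sh1089-1. For sh1089-2 against shNC it was near 0 and positive in 3 of 8 alternatives, between -0.06 and 0.03. The mitochondrial median for sh1089-1 stayed between -0.18 and -0.15. For sh1089-2 it was between -0.11 and 0.02 against shNC and between -0.09 and 0.01 against sh1089-1, at or above 0 in 2 of 8 each. Leaving out members that share coding bases was chosen after seeing the data. No paired analysis was possible because each group is 1 library. Depth limits the members with few reads, such as NDUFV2, NDUFA7 and COX8C, whose differences cannot be read.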
